A study of Caenorhabditis elegans with 6 samples.

Results

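The GLD pathway drives germ cells of Caenorhabditis elegans out of mitosis and into meiosis, and 7 genes of it, chosen by name, were followed in the dissected gonad of animals mutant for sin-3. They are gld-1, nos-3 and atx-2, whose products act in translational repression, gld-2, gld-3 and rnp-8, which encode a cytoplasmic poly(A) polymerase and its partners, and gld-4, which encodes a further poly(A) polymerase. Each name matched 1 of 46934 gene identifiers, and all 7 members were among the 9787 genes with enough reads to be tested.

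The samples were 3 libraries from sin-3(tm1276) animals and 3 libraries from wild-type animals. The gene sin-3 encodes the scaffold of a histone deacetylase complex, and tm1276 is the mutant allele named in the labels. Each library pooled gonads of 5 to 7 young adults, collected 12 h after the L4 larval stage. The gonad arm was cut at its elbow and its distal part was used, where germ cells divide and enter meiosis inside a thin somatic sheath.

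In the distal gonad, Notch signalling from the somatic niche keeps germ cells in mitosis through the RNA-binding proteins FBF-1 and FBF-2, which repress mRNAs that promote meiosis. Away from the niche the GLD proteins accumulate. GLD-1 is a STAR-domain RNA-binding protein that represses the translation of many mRNAs, and NOS-3, a Nanos homologue, promotes the accumulation of GLD-1. A parallel branch consists of GLD-2, a poly(A) polymerase that lengthens poly(A) tails in the cytoplasm, and GLD-3, a Bicaudal-C homologue that brings it to mRNAs. RNP-8 is an alternative RNA-binding partner of GLD-2, and GLD-2 acts with GLD-3 in sperm fate and with RNP-8 in oocyte fate. GLD-4 is a second cytoplasmic poly(A) polymerase, and ATX-2 is the worm ataxin-2, required for the translational control exerted by GLD-1.

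Gene-assigned reads numbered 24491014 to 30634455 in the mutant libraries and 24505604 to 25002505 in the wild-type libraries. The level of sin-3 was 179, 176 and 184 CPM in mutant replicates 1, 2 and 3 and 367, 358 and 369 CPM in wild-type replicates 1, 2 and 3. CPM here are counts relative to library size, with libraries scaled by the trimmed mean of M values (TMM), and the sin-3 values of the genotypes did not overlap. Germ cell markers were abundant in every library. None of the 10 was at 0, and their summed level was 3790.5 to 3885.5 CPM in the mutant libraries and 4145.5 to 4457 CPM in the wild-type libraries. All 7 sperm markers were under 1 CPM in every library. Of 12 somatic gonad markers 9 were tested, with 4 called higher and 2 lower in the mutant. The summed level of the 12 was 1747 to 1845 CPM in the mutant libraries and 1611 to 1889 CPM in the wild-type libraries. Most of that sum was fln-1, with a log2 fold change of -0.021. The markers lim-7, inx-9, ceh-18 and inx-8 were called higher, at log2 fold changes of 1.35, 1.30, 1.18 and 0.56. Those called lower were tnt-4 at -3.36, averaging 0.119 CPM in the mutant and 1.24 CPM in wild type, and sys-1 at -0.14. The markers mup-2, hnd-1 and fln-1 were not called. The summed level of 8 intestine markers was 220.0 to 281 CPM in the mutant libraries and 215 to 554 CPM in the wild-type libraries, with 7 tested, 1 called higher and 0 lower. Of 6 muscle markers 5 were tested and 2 called lower, myo-1 at -3.05 and myo-2 at -2.77, and the summed level was 126 to 197 CPM in the mutant libraries and 144 to 243 CPM in the wild-type libraries. The 5 neuron markers summed to 48.6 to 53.1 CPM in the mutant libraries and 70.8 to 75.7 CPM in the wild-type libraries, mostly snb-1, which was called lower at -0.63, while unc-119 was called higher at 0.51. The 5 hypodermis markers summed to 47.7 to 60.8 CPM in the mutant libraries and 42.7 to 84.2 CPM in the wild-type libraries, mostly col-19. Only 2 of the 5, col-19 and elt-3, were tested, and neither was called. The part of these markers in the members' values was not tested. The marker ehn-3 of somatic gonad precursors was at 0 in all 6 libraries, and lag-2, which encodes the Notch ligand of the niche cell, averaged 0.344 CPM in the mutant and 0.129 CPM in wild type. In bulk RNA, fewer cells of a type and less RNA per cell cannot be told apart.

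The members lie on 3 autosomes and none is X-linked. In WBcel235 coordinates, all on the plus strand, gld-1 (WBGene00001595) spans I, 7695681 to 7698222, gld-2 (WBGene00001596) I, 6369748 to 6386194, gld-4 (WBGene00014115) I, 9118115 to 9123181, and rnp-8 (WBGene00020091) I, 364510 to 368579. On chromosome II, gld-3 (WBGene00001597) spans 7132643 to 7137522 and nos-3 (WBGene00003785) 9746316 to 9750462, and atx-2 (WBGene00000231) spans III, 10461389 to 10468051. The gene models differ in complexity. The genes gld-1 and gld-4 have 1 annotated transcript each, encoding 463 and 845 residues. For gld-2 there are 6 annotated transcripts, with proteins of 754 to 1113 residues, and for gld-3 there are 2, with proteins of 603 and 969 residues. The gene nos-3 has 5 transcripts, and rnp-8 and atx-2 have 4 each. The longest annotated 3′ UTR, the part of an mRNA on which much of this control is exerted, was 1420 bases in gld-4, 1110 in gld-2, 812 in gld-1, 727 in atx-2, 654 in gld-3, 639 in rnp-8 and 597 in nos-3. A count per gene sums over all transcripts, so changes in isoform or in poly(A) tail length were not measured.

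Per unit length gld-1 was by far the most abundant member in both genotypes. Its level was 223 ± 10.3 CPM per kilobase of merged exons in the mutant and 268 ± 10.9 CPM per kilobase in wild type (SD, n = 3 each). Among the 16240 protein-coding genes with a read, that placed gld-1 at percentile 98.1 in the mutant and 98.4 in wild type. The level of gld-3 came next, at 82.4 ± 1.55 CPM per kilobase in the mutant and 96.4 ± 2.21 CPM per kilobase in wild type (SD, n = 3 each), so gld-1 exceeded it 2.71-fold in the mutant and 2.78-fold in wild type. The polymerase gene gld-2 was the least abundant, at 25.1 ± 1.48 CPM per kilobase in the mutant and 30.8 ± 1.06 CPM per kilobase in wild type (SD, n = 3 each). The catalytic subunit was thus less abundant as mRNA per length than each of the RNA-binding partners.

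The order in wild type was gld-1, gld-3, nos-3, rnp-8, gld-4, atx-2 and gld-2, and no 2 neighbours in it overlapped between libraries. In the mutant rnp-8 stood above nos-3. There the library values of rnp-8 overlapped those of gld-3 above it and those of nos-3 below it, with means within 1.05-fold and 1.02-fold. The remaining mutant neighbours did not overlap.

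**Figure D1:**
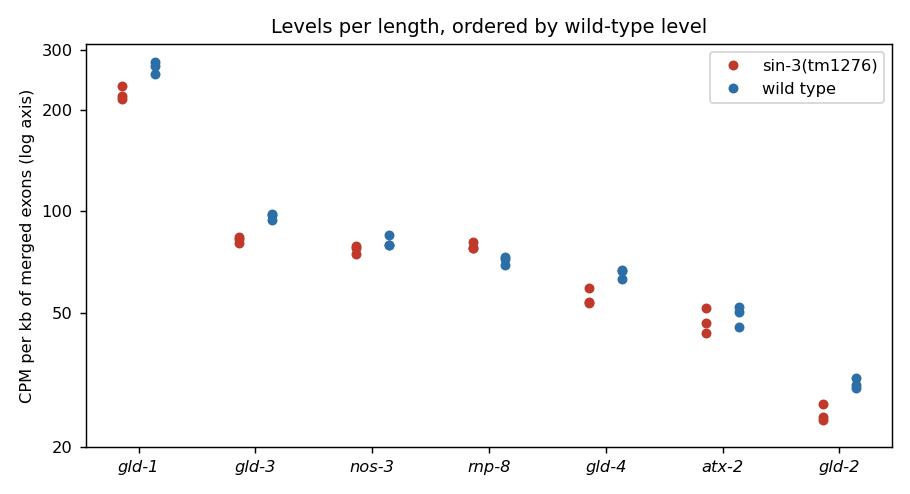
Level of each member in CPM per kilobase of merged exons on a log axis, with 1 point per library for sin-3(tm1276) (left of each pair) and wild type (right), ordered by the wild-type mean. gld-1 stands 2.78-fold above gld-3 in wild type, and rnp-8 is the member whose mutant points lie above its wild-type points.

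Of the 3 translational repressor genes, gld-1 was lower in the mutant, while nos-3 and atx-2 did not pass the test. The level of gld-1 was 521, 486 and 478 CPM in mutant replicates 1, 2 and 3, against 599, 616 and 568 CPM in wild-type replicates 1, 2 and 3. The highest mutant library lay below the lowest wild-type library. The log2 fold change, mutant over wild type, was -0.26 ± 0.040 (SE), so that gld-1 fell by 16.7% (adjusted p = 5.9e-05). This p and the others below come from the quasi-likelihood test of edgeR, adjusted over all 9787 genes by the Benjamini-Hochberg method.

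For nos-3, whose product promotes GLD-1 accumulation, the values were 271, 266 and 256 CPM in mutant replicates 1, 2 and 3 and 273, 292 and 272 CPM in wild-type replicates 1, 2 and 3. The genotypes did not overlap, but the nearest libraries were 270.9 CPM in the mutant and 272.3 CPM in wild type. The log2 fold change of -0.078 ± 0.037 (SE) had a 95% interval of -0.16 to 0.0010 (adjusted p = 0.079, edgeR). The call moved across the threshold with 1 library or the scaling: the adjusted p was 0.045 without wild-type replicate 1, 0.039 without wild-type replicate 3 and 0.045 with DESeq2 size factors in edgeR.

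The level of atx-2 was 199, 180.0 and 168 CPM in mutant replicates 1, 2 and 3, and 194, 200.3 and 175 CPM in wild-type replicates 1, 2 and 3. The genotypes overlapped, and the spread between libraries was the largest of the 7 members, at 8.48% of the mean in the mutant and 6.94% in wild type. The log2 fold change was -0.058 ± 0.071 (SE) with a 95% interval of -0.22 to 0.11 (adjusted p = 0.51, edgeR), and the lower end of that interval lay close to the value measured for gld-3.

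The polymerase gene gld-2 and its partner gene gld-3 were lower in the mutant, while the alternative partner gene rnp-8 was higher. The level of gld-2 was 169, 154 and 151 CPM in mutant replicates 1, 2 and 3, against 192, 201 and 188 CPM in wild-type replicates 1, 2 and 3. The groups did not overlap, and the log2 fold change of -0.30 ± 0.043 (SE) was the largest of the 7. The level fell by 18.5% (adjusted p = 4.5e-05, edgeR).

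For gld-3 the values were 319, 322 and 310.1 CPM in mutant replicates 1, 2 and 3, against 377, 361 and 374 CPM in wild-type replicates 1, 2 and 3. The mutant libraries were close to each other and all below the wild-type libraries. The log2 fold change was -0.23 ± 0.032 (SE), and the level fell by 14.5% (adjusted p = 3.3e-05, edgeR).

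The level of rnp-8 was 191, 199.7 and 191 CPM in mutant replicates 1, 2 and 3, against 177, 180.0 and 171 CPM in wild-type replicates 1, 2 and 3. Every mutant library was above every wild-type library. The log2 fold change was 0.14 ± 0.035 (SE), a rise of 10.2% (adjusted p = 0.003, edgeR). With an offset for gene length the change was 0.089 ± 0.041 (SE) and no longer called (adjusted p = 0.069, edgeR).

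The exons of rnp-8 share 310 bases, or 12.6% of their length, with icpp-55, a gene on the other strand. The level of icpp-55 was 57.6 ± 2.43 CPM in the mutant and 40.3 ± 0.65 CPM in wild type (SD, n = 3 each), a log2 fold change of 0.51 ± 0.050 (SE; adjusted p = 7e-07, edgeR). The part of this overlap in the rise of rnp-8 was not tested. Reads kept apart as lying over several genes were 0.465% to 0.473% of all counted reads in the mutant libraries and 0.438% to 0.453% in the wild-type libraries. From the reads on unshared exon bases, 0.351% to 0.360% in the mutant libraries and 0.324% to 0.332% in the wild-type libraries would be expected if strand was used, against 2.13% to 2.44% in the mutant libraries and 2.58% to 2.85% in the wild-type libraries if it was ignored. For the other members the share of exon bases held in common with another gene was 4.29% for gld-4, with a small nucleolar RNA gene at 0 counts, 1.48% for nos-3, 0.732% for gld-2 and nothing for gld-1, gld-3 and atx-2.

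The second polymerase gene gld-4 was lower in the mutant, at 234, 212 and 212 CPM in mutant replicates 1, 2 and 3, against 263, 266 and 249.9 CPM in wild-type replicates 1, 2 and 3. Its groups did not overlap, and the log2 fold change was -0.24 ± 0.042 (SE). The level fell by 15.5% (adjusted p = 2.1e-04, edgeR).

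**Figure D2:**
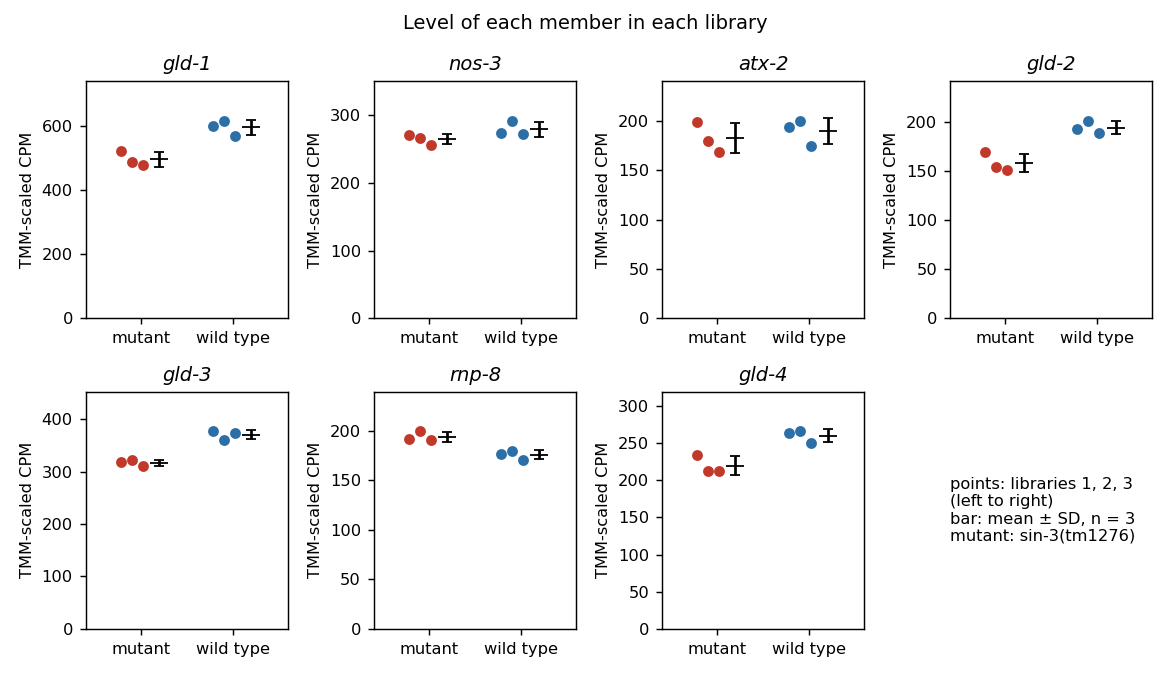
TMM-scaled CPM of each member in the 3 sin-3(tm1276) libraries (left in each panel) and the 3 wild-type libraries (right), with the mean ± SD (n = 3), on axes that start at 0. The mutant points of gld-1, gld-2, gld-3 and gld-4 lie below all wild-type points, those of rnp-8 lie above, and those of atx-2 overlap.

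In all, 4 of the 7 members were called lower, 1 higher and 2 were not called. Of all tested genes 62.0% were called, 30.7% lower and 31.3% higher. The values of the genotypes did not overlap for 6 of the 7, against 67.8% of all tested genes. The median log2 fold change of the members was -0.23, beside 0.028 over all tested genes. All members belong to the 3096 tested autosomal protein-coding genes that averaged 64 CPM or more, of which 52.6% were called lower and 21.7% higher, with a median of -0.12. The changes of the members were small in these libraries: that of gld-2 was larger in size than those of 44.4% of tested genes, and that of rnp-8 larger than 22.4%.

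Of 10 germ cell markers 5 were called lower and 1 higher, their median log2 fold change was -0.18, and their summed level gave a log2 ratio of -0.17. Under scaling by library totals 2 were lower and 3 higher, with a median of -0.014. Their part in the members' falls was not tested.

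In the authors' deposited table the log2 fold changes were -0.29 for gld-1, -0.33 for gld-2, -0.26 for gld-3, -0.27 for gld-4, -0.11 for nos-3, -0.088 for atx-2 and 0.11 for rnp-8. The authors' deposited table gave adjusted p values under its own test of 0.028 for rnp-8, 0.053 for nos-3 and 0.38 for atx-2.

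The scaling of libraries changed several of these calls. Scaling by library totals in place of TMM moved the log2 fold changes of all tested genes up by a median of 0.17, and 1864 genes were then lower and 4446 higher, where TMM gave 3003 lower and 3065 higher. Under it gld-1, gld-3 and gld-4 lost their calls, at log2 fold changes of -0.096, -0.059 and -0.076 with adjusted p of 0.052, 0.15 and 0.14 in edgeR, and gld-2 stayed lower at -0.13 (adjusted p = 0.018). The values of nos-3 and atx-2 turned positive there, at 0.088 and 0.11, and neither was called (adjusted p = 0.054 and 0.19). With the offset for gene length, 6 members were called lower and 0 higher.

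**Figure D3:**
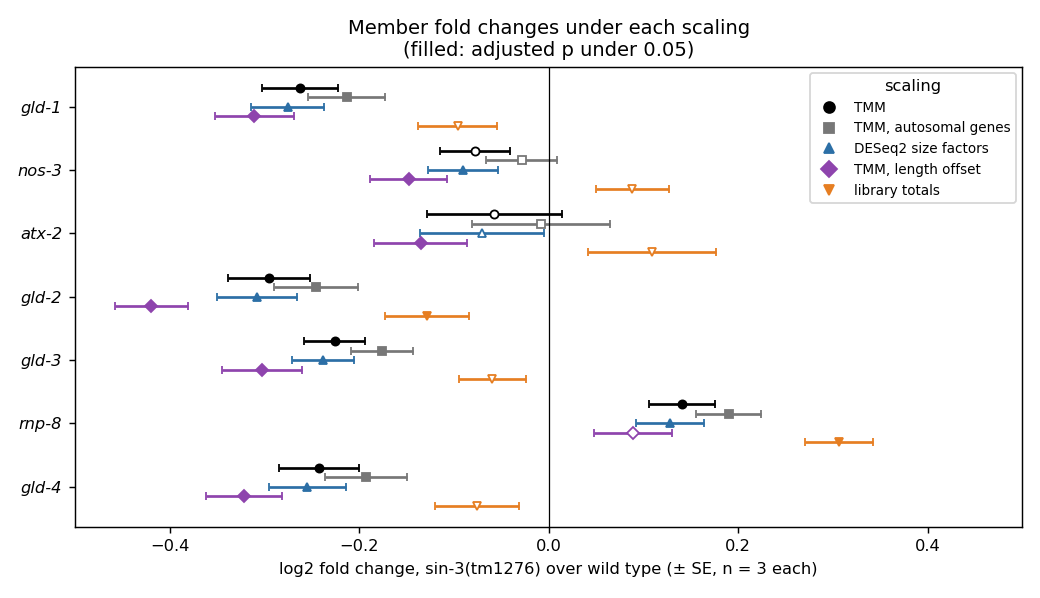
Log2 fold change of each member, sin-3(tm1276) over wild type, with its SE (n = 3 each) under 5 scalings of the libraries, with filled symbols for an adjusted p under 0.05. Scaling by library totals moves every member to the right by about the median shift of 0.17, which takes nos-3 and atx-2 past 0 and leaves gld-2 and rnp-8 called.

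Ratios of 2 members within a library do not depend on how libraries are scaled, and 6 such ratios were compared. The log2 ratio of rnp-8 to gld-2 counts was 0.18, 0.38 and 0.33 in mutant replicates 1, 2 and 3, against -0.12, -0.16 and -0.14 in wild-type replicates 1, 2 and 3. The ratio of rnp-8 to gld-2 was thus 1.35-fold higher in the mutant, with no overlap between genotypes (two-sided exact permutation p = 0.1, adjusted p = 0.12 over the 6 ratios). Per length of merged exons, rnp-8 mRNA was 3.15 ± 0.22 times that of gld-2 in the mutant and 2.32 ± 0.033 times in wild type (SD, n = 3 each). These multiples depend on the length used. By the longest transcript rnp-8 was at 80.8 and gld-2 at 33.8 CPM per kilobase in the mutant. In wild type the 2 were at 73.35 and 41.5 CPM per kilobase.

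For rnp-8 over gld-3, the 2 alternative partners, the log2 ratio was -0.74, -0.69 and -0.70 in mutant replicates 1, 2 and 3, against -1.09, -1.004 and -1.13 in wild-type replicates 1, 2 and 3. This ratio also had no overlap between genotypes, with a two-sided exact permutation p of 0.1 and an adjusted p of 0.12. Per length of merged exons the partners were nearly equal in the mutant, at 0.957 ± 0.017, while rnp-8 was at 0.743 ± 0.033 of gld-3 in wild type (SD, n = 3 each). By the longest transcript rnp-8 was at 80.8 and gld-3 at 88.9 CPM per kilobase in the mutant, and at 73.35 and 104 in wild type. By contrast gld-3 over gld-2 overlapped between the genotypes, with a mean log2 ratio of 1.01 ± 0.076 in the mutant and 0.94 ± 0.080 in wild type (SD, n = 3 each), and a two-sided exact permutation p of 0.4.

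The polymerase genes gld-4 and gld-2 held nearly the same ratio in the 6 libraries, with a mean log2 ratio of 0.48 ± 0.011 in the mutant and 0.42 ± 0.027 in wild type (SD, n = 3 each), although the genotypes did not overlap. The log2 ratio of nos-3 to gld-1 was -0.90 ± 0.038 in the mutant and -1.09 ± 0.038 in wild type, and that of atx-2 to gld-1 was -1.44 ± 0.060 in the mutant and -1.65 ± 0.044 in wild type (SD, n = 3 each). Both were higher in every mutant library than in every wild-type library. The 5 ratios without overlap each had a two-sided p of 0.1 in the exact permutation test, where 3 against 3 samples allow no smaller value, and 0.12 after adjustment over the 6 ratios, so none can pass 0.05 by this test. Leaving out 1 library at a time kept the sign of every ratio's difference.

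**Figure D4:**
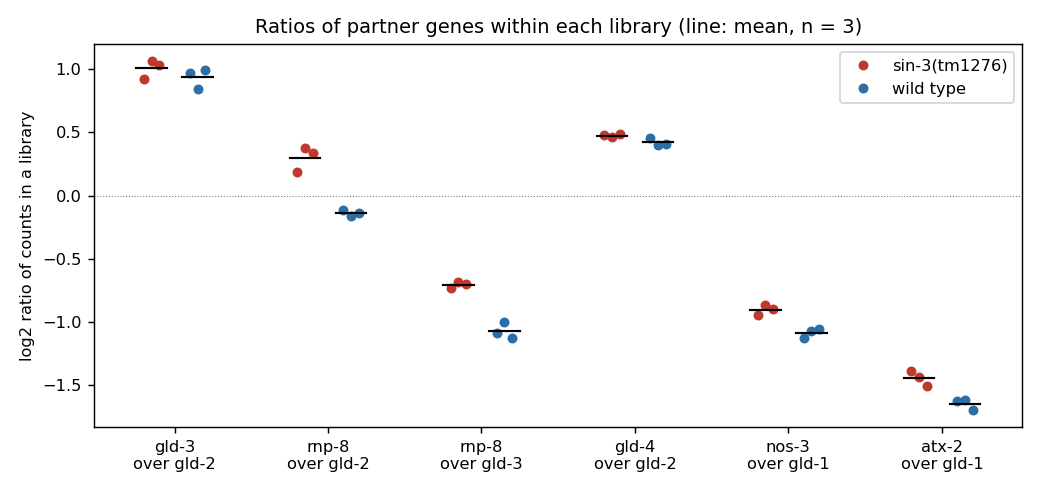
Log2 ratio of the counts of 2 members in each library for sin-3(tm1276) (left of each pair) and wild type (right), with a line at the mean (n = 3). The mutant points of rnp-8 over gld-2 and of rnp-8 over gld-3 lie above all wild-type points, while gld-3 over gld-2 overlaps.

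Over the 6 libraries gld-1, gld-2 and gld-4 had the most alike profiles of the members. Likeness was measured as the root mean square difference of log2 CPM over the 6 libraries, after each gene was centred on its own mean. This measure includes the difference between the genotypes. It was 0.018 for gld-1 with gld-4, 0.023 for gld-1 with gld-2 and 0.031 for gld-2 with gld-4, the smallest of the 21 member pairs, and 0.225 for gld-2 with rnp-8, the largest. Among mutant libraries replicate 1 was the highest for 5 of the 7 members and replicate 3 the lowest for all 7. Among wild-type libraries replicate 2 was the highest for 6 members and replicate 3 the lowest for 6. The exceptions were gld-3 and rnp-8 in the mutant, highest in replicate 2, and gld-3 in wild type, highest in replicate 1 and lowest in replicate 2. Over all genes mutant replicate 1 was also the mutant library nearest to wild type, with a chi-square per degree of freedom of 72.4 to 82.3 against the wild-type libraries, beside 94.5 to 129.9 for mutant replicates 2 and 3. Without mutant replicate 1 the log2 fold changes of gld-1, gld-2 and gld-4 were -0.30, -0.345 and -0.29. Counting error alone is small at this depth, at 0.848% of the wild-type level for gld-1 and 1.56% for rnp-8.

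Outside the members, the closest profiles to those of gld-1 and gld-2 among 4015 named protein-coding genes of at least 5 CPM belonged to ttc-37 and hal-2. Likeness to gld-1 was 0.017 for both, and to gld-2 it was 0.021 for hal-2 and 0.022 for ttc-37. The product of hal-2 acts in homologue pairing in meiosis. The profile of gld-3 was nearest to that of mcm-5, a replicative helicase subunit gene, at 0.0071, and then to wht-7 at 0.014. For gld-4 the nearest were tsr-1 and algn-14, for nos-3 wah-1 and sumv-1, for rnp-8 pigo-1 and dph-5, and for atx-2 lec-1 and gyf-1, at 0.015 to 0.029. All these are measures over the 6 libraries and carry no test.

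Of the 14 nearest protein-coding neighbours of the members 9 were tested, with 3 higher, 2 lower and 4 not called. Of all tested genes 62.0% were called. For gld-3 and rnp-8 a called neighbour moved in the direction of the member, and for rnp-8 and gld-4 a called neighbour moved the other way. A link between neighbours and members was not tested. T07F8.4 beside gld-3 had a log2 fold change of -0.35 (adjusted p = 0.00033, edgeR) and R119.3 beside rnp-8 one of 0.27 (adjusted p = 9.2e-05, edgeR). The other called neighbour of rnp-8, Y48G1A.1, was lower at -0.84 (adjusted p = 2.6e-08, edgeR), and nduf-7 beside gld-4 was higher at 0.22 (adjusted p = 0.00011, edgeR). The gene Y53C12B.1 lies 237 bases from nos-3 on the other strand and had a log2 fold change of 0.37 (adjusted p = 3.7e-07, edgeR), beside -0.078 for nos-3. The gene ZC308.4 lies 151 bases before gld-2 on the same strand and was not called, at 0.057 (adjusted p = 0.27, edgeR).

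Among the regulators that hold germ cells in mitosis, 10 of 11 listed Notch and FBF genes were tested, of which 5 fell, 1 rose and 4 were not called, with a median log2 fold change of -0.26. Their share of lower genes lay above the 30.7% of all tested genes and near the 52.6% of autosomal protein-coding genes that averaged 64 CPM or more. Some of the list, such as apx-1, averaged 8 to 64 CPM, where 42.5% of such genes were lower. Under scaling by library totals 4 were lower and 3 higher. The FBF-related PUF protein gene puf-3 was at 305 ± 13.4 CPM in the mutant and 409 ± 1.82 CPM in wild type, and lst-1, a direct Notch target, at 58.6 ± 1.14 CPM in the mutant and 80.2 ± 2.46 CPM in wild type (SD, n = 3 each). The Notch ligand gene apx-1 was at 25.1 ± 0.68 CPM in the mutant and 39.0 ± 3.57 CPM in wild type (SD, n = 3 each). The receptor gene glp-1 had a log2 fold change of -0.0032 ± 0.031 (SE; adjusted p = 0.93, edgeR), and 0.16 with a call of higher under scaling by library totals. The one gene that rose, fbf-1, had a log2 fold change of 0.11 ± 0.044 (SE; adjusted p = 0.047, edgeR) and lost its call in 8 of 14 alternatives. The 2 FBF genes are close copies of each other, as are puf-3 and puf-11, so counts of each single gene are uncertain.

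A list of 8 genes joined the SCF-PROM-1 branch, a ubiquitin ligase that acts beside the GLD branches in meiotic entry, with chk-2, cye-1 and cdk-2. Of the 8, 5 were called lower and 3 higher. Of all tested genes 62.0% were called, 30.7% lower and 31.3% higher. All 8 are autosomal, and all but cdk-2 averaged 64 CPM or more. Of autosomal protein-coding genes at that level 52.6% were lower and 21.7% higher, so the list's share of lower genes lay near theirs. The median log2 fold change of the 8 was -0.34, beside 0.028 over all tested genes. The scaffold gene cul-1 was at 73.5 ± 2.00 CPM in the mutant and 136 ± 0.92 CPM in wild type (SD, n = 3 each), a log2 fold change of -0.88 ± 0.036 (SE; adjusted p = 1.8e-10, edgeR). The adaptor genes skr-1 and skr-2, near copies of each other whose single counts are uncertain, were at -0.97 ± 0.039 and -0.65 ± 0.035 (SE) on the same scale. The F-box gene prom-1 fell by less, at -0.20 ± 0.042 (SE), and was not called under scaling by library totals (-0.032). The 3 that rose were outside the ligase, namely cye-1 and cdk-2, which encode cyclin E and its kinase and favour mitosis, and chk-2, a kinase of early meiotic prophase. The call of chk-2, at 0.22 ± 0.068 (SE; adjusted p = 0.017, edgeR), ended without mutant replicate 2, mutant replicate 3, wild-type replicate 2 or wild-type replicate 3.

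Of 15 mRNAs known as GLD-1 targets, 4 were lower, 4 higher and 7 not called. These shares lay near those of all tested genes, of which 30.7% were lower and 31.3% higher. All 15 are autosomal and averaged 64 CPM or more, a level at which 52.6% of autosomal protein-coding genes were lower and 21.7% higher. The list thus held a smaller share of lower genes than that level did. The median log2 fold change of the 15 was -0.012, against 0.028 over all tested genes and -0.12 over genes at that level. The lower targets were genes of oocyte growth and the eggshell. The PUF protein gene puf-5 was at 554 ± 31.3 CPM in the mutant and 841 ± 15.8 CPM in wild type, the yolk receptor gene rme-2 at 1246 ± 65.2 CPM in the mutant and 1680.1 ± 48.7 CPM in wild type, and gna-2, an eggshell chitin synthesis gene, at 126 ± 3.36 CPM in the mutant and 176 ± 7.35 CPM in wild type (SD, n = 3 each). The fourth was egg-1, at -0.27 ± 0.046 (SE), not called under scaling by library totals (-0.11), and its close copy egg-2 makes its single count uncertain. The higher ones were cye-1, cpb-3, mex-3 and mes-3, with log2 fold changes of 0.36 ± 0.037, 0.18 ± 0.034, 0.16 ± 0.035 and 0.18 ± 0.040 (SE), and mes-3 was not called with the offset for gene length, at 0.11. GLD-1 acts on translation as well as on mRNA stability, and protein was not measured. Under scaling by library totals 9 of the 15 were higher and 3 lower.

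Of 18 other genes that act on poly(A) tails 17 were tested, with 9 lower, 4 higher and 4 not called, and the median log2 fold change was -0.11. This share of lower genes was likewise near the 52.6% of genes at 64 CPM or more. Under scaling by library totals 5 were lower and 8 higher, and the median was 0.052. The gene gls-1, whose product binds GLD-3 and GLD-4, was at 161 ± 6.10 CPM in the mutant and 204 ± 3.05 CPM in wild type (SD, n = 3 each), a log2 fold change of -0.34 ± 0.036 (SE; adjusted p = 1.6e-06, edgeR). The deadenylase complex gene ntl-2 was at 43.2 ± 0.49 CPM in the mutant and 68.3 ± 3.09 CPM in wild type (SD, n = 3 each). The poly(A) binding protein gene pab-1 had a log2 fold change of -0.30 ± 0.034 (SE). The CPEB homologue genes cpb-1 and fog-1 moved apart, with log2 fold changes of -1.78 ± 0.065 for cpb-1 and 0.50 ± 0.061 for fog-1 (SE).

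Of 14 genes whose products act on chromosomes in early meiotic prophase, 4 were higher, 4 lower and 6 not called. Of all tested genes 62.0% were called, 31.3% higher and 30.7% lower. All 14 are autosomal, and all but syp-3 averaged 64 CPM or more. Of autosomal protein-coding genes at that level 21.7% were higher and 52.6% lower, with a median log2 fold change of -0.12. The list's share of lower genes was below that of genes at this level. Besides axis and synaptonemal complex genes the list held the cohesin genes rec-8, coh-3 and coh-4, the kinase gene plk-2, and zyg-12 and sun-1, whose products sit in the nuclear envelope. The lower ones were syp-1, syp-3, rec-8 and zyg-12. The list's median log2 fold change was -0.026. The axis gene htp-2 was at 81.3 ± 2.71 CPM in the mutant and 61.0 ± 0.36 CPM in wild type, and the synaptonemal complex gene syp-1 at 61.0 ± 0.93 CPM in the mutant and 80.5 ± 2.52 CPM in wild type (SD, n = 3 each). The cohesin gene coh-4 was at 74.8 ± 1.21 CPM in the mutant and 56.1 ± 3.72 CPM in wild type (SD, n = 3 each). The genes htp-1 and htp-2, and coh-3 and coh-4, are close copies, so their single counts are uncertain. Under scaling by library totals 9 of the list were higher and 1 lower.

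Of 7 sex determination genes that work with GLD-1, GLD-3 or NOS-3 in the choice of sperm fate, 6 were tested and 4 fell, 1 rose and 1 was not called. Over all tested genes 30.7% were lower and 31.3% higher. Of autosomal protein-coding genes that averaged 64 CPM or more, as fem-1, fem-2, fem-3 and tra-1 did, 52.6% were lower. At 8 to 64 CPM, the level of fog-2 and tra-3, 42.5% were lower. The median log2 fold change of the 6 was -0.34, and -0.18 under scaling by library totals, where the list's counts were the same. The genes fem-1, fem-2 and fem-3, which promote sperm fate and whose mRNA in the case of fem-3 is a target of NOS-3 and FBF, were at log2 fold changes of -0.31 ± 0.040, -0.52 ± 0.037 and -0.89 ± 0.056 (SE). The F-box gene fog-2, whose product binds GLD-1 to repress tra-2, was at 45.5 ± 0.89 CPM in the mutant and 59.1 ± 3.13 CPM in wild type (SD, n = 3 each). The gene that rose, tra-3, lost its call without wild-type replicate 2. All 4 lower members of this list were called lower under each scaling tried. Of the related genes named with values, glp-1, fbf-1, prom-1, chk-2 and egg-1 share exon bases with a gene on the other strand, and syp-1 and coh-4 with a gene on the same strand, so their counts are uncertain to that extent.

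**Figure D5:**
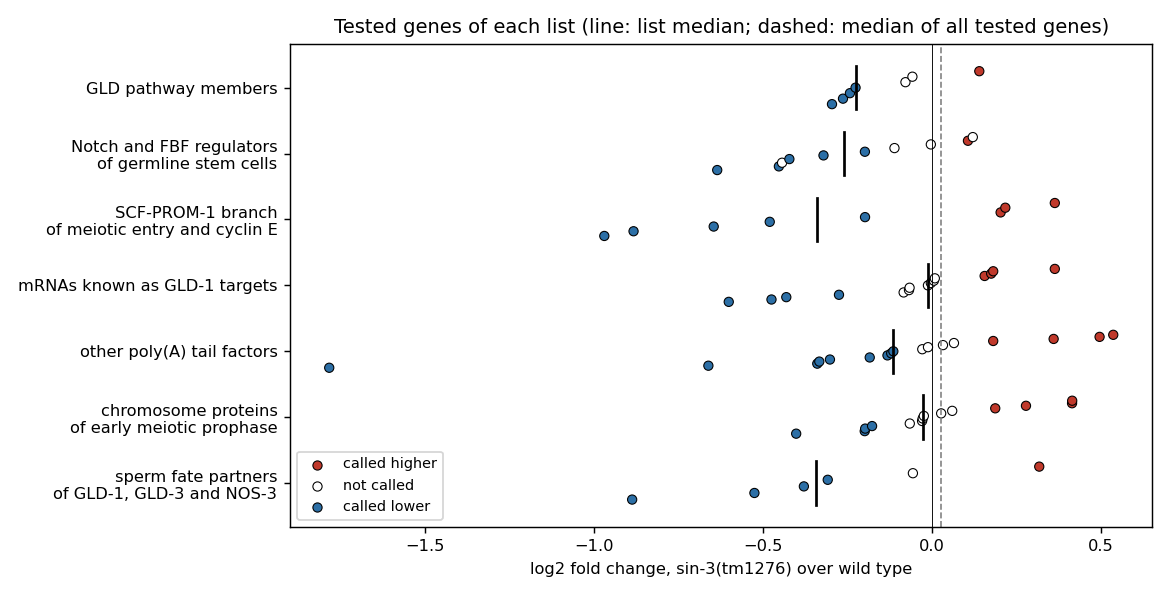
Log2 fold change, sin-3(tm1276) over wild type, of every tested gene in the members' list and in 6 lists of related genes, with 1 point per gene coloured by its edgeR call, a line at the list median and a dashed line at the median of all tested genes (0.028). The members lie between -0.30 and 0.14, while the list with the SCF-PROM-1 genes spreads from -0.97 to 0.36.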

How the data were processed

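Stranded, ribosome-depleted total RNA libraries were sequenced as single reads of 50 bases, per the labels' protocols. The count of reads per gene is the one the authors deposited, in whole numbers. The submitters' processing notes list STAR 2.7.3a, fastp 0.20.1, DESeq2 1.36.0 and HTSeq 0.7.2, with no role. Build, annotation and strand setting were not given in the sources used here. The authors also deposited a table of log2 fold changes, their standard errors (read as a score) and p-values, per the file headers. Lines naming no gene held 8.73% to 10.9% of reads and were left out. Names, lengths and coordinates come from Ensembl's WBcel235 annotation, which held 46923 of the 46934 identifiers. No sequence is printed.

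The counts entered edgeR 4.0.16 in R 4.3.3 (filterByExpr, TMM, robust quasi-likelihood F test), with genotype as the only term. The Benjamini-Hochberg threshold was 0.05 over 9787 genes. DESeq2 1.42.0, other scalings and filters, a length offset and left-out libraries were the alternatives. Libraries of a genotype differed by a chi-square of 12.5 to 18.8 per degree of freedom, so none is a copy. No label states separate cultures, and a p-value then covers only the spread of these samples, which may be technical. Outside the members, the rule named sin-3, the genes with the 3 smallest p of each list and the 2 closest profiles per member. Further list genes, neighbours and icpp-55 were named after their values were seen. Members and lists were chosen with earlier results of these data known.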

Additional observations from a re-analysis of the deposited data

How the results depend on the processing

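Direction and call held for gld-2 in all alternatives, and for gld-1, gld-3 and gld-4 in all but scaling by library totals. Scaling by library totals gave log2 fold changes of -0.096 for gld-1, -0.059 for gld-3, -0.076 for gld-4, 0.088 for nos-3 and 0.11 for atx-2, with 1 member lower and 1864 genes lower (4446 higher). By its construction it moves all genes together. Its pathway counts were 3 Notch and FBF genes higher, 9 GLD-1 targets higher, 8 poly(A) factors higher and 5 lower, and 9 prophase genes higher and 1 lower. With the gene length offset nos-3 was at -0.15, atx-2 at -0.14 and rnp-8 at 0.089, with 0 members higher, 0 Notch and FBF genes higher and 7 GLD-1 targets lower; the cause was not tested. With a filter at an average of 5 CPM atx-2 was at 0.010, with 2 Notch and FBF genes higher and 5 poly(A) factors lower. DESeq2 size factors put nos-3 at -0.091 (adjusted p = 0.045) and the DESeq2 Wald test at -0.10 (adjusted p = 0.029), each with 0 Notch and FBF genes higher. TMM on autosomal genes gave 2 Notch and FBF genes higher, and no filter gave 2 sperm fate genes higher.

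With 1 library left out the log2 fold changes ranged from -0.30 to -0.24 for gld-1, -0.345 to -0.27 for gld-2, -0.25 to -0.22 for gld-3, -0.29 to -0.23 for gld-4, -0.10 to -0.052 for nos-3, -0.12 to -0.011 for atx-2 and 0.11 to 0.15 for rnp-8. Notch and FBF genes higher ranged from 0 to 1 and sperm fate genes higher from 0 to 1. Same-numbered libraries of the genotypes did not deviate together (correlations of -0.21, -0.078 and -0.10 over 6319 genes). Unlike-numbered libraries gave correlations of -0.23 to 0.24. Whether same-numbered libraries shared a preparation was not tested. With a replicate block 2906 genes were higher and 2935 lower, and gld-1, gld-2, gld-3, gld-4, nos-3, rnp-8 and atx-2 were at -0.26, -0.30, -0.23, -0.24, -0.078, 0.14 and -0.058, with no change in the members' calls.

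Levels per kilobase under library totals were 236 (mutant) and 253 (wild type) for gld-1, 87.3 and 90.9 for gld-3, 58.7 and 61.9 for gld-4, 81.5 and 76.7 for nos-3, 83.5 and 67.5 for rnp-8, and 29.1 in wild type for gld-2. With the longest transcript as length gld-2 was at 33.8 (mutant) and 41.5 (wild type), still the lowest member, and gld-3 at 88.9 and 104. Counting error is at most 1.56% of a member's wild-type level, so the spread between libraries limits precision more than depth does.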
